A study of Mus musculus with 15 samples.

Results

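The MYC family and its MAX network were followed across leukemia stem cells (LSC) of 4 tissues and across normal marrow cells. The 9 genes described are Myc, Mycn, Max, Mxd1, Mxd3, Mxd4, Mxi1, Mnt and Mga, taken by exact symbol from 23359 gene entries, and all 9 were found. RNA-seq had been run on 15 libraries, 3 in each of 5 groups. LSC came from gonadal adipose tissue (AT LSC), peripheral blood (BL LSC), spleen (SPL LSC) and bone marrow (BM LSC), and their normal counterparts from normal bone marrow (NBM). The LSC belonged to a murine leukemia, blast-crisis chronic myeloid leukemia in type, in which the human oncogenes BCR-ABL and NUP98-HOXA9 are expressed together. They were taken 12 days after leukemia cells had been transplanted. All mice were female and 3 months old. The strain and treatment labels of NBM repeat the leukemia text, so the genotype of the normal mice is known only from the name of the group. No sort gate is named in the labels. Nor do they tie a library to a mouse, and the p-values of the authors may therefore reflect only technical variation.

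MYC and MYCN are transcription factors of the basic helix-loop-helix leucine zipper class that bind DNA only as dimers with MAX, at the E-box. MXD1, MXD3, MXD4, MXI1 (also called MXD2) and MNT dimerise with MAX at the same sites and recruit SIN3 and histone deacetylases, so they oppose MYC. MGA also pairs with MAX and brings in the Polycomb complex PRC1.6. In blood formation MYC is known for growth and division of progenitors, and MXD1 for being switched on as myeloid cells mature.

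The promoters of 3 members are shown because each stands for one of the patterns described here: Mxd1 for the antagonist that was highest in AT and BL LSC, Mnt for a lower-expressed antagonist whose levels were also highest in AT and BL LSC, and Mycn for the gene that separated every LSC group from NBM. For Mnt no comparison had a q-value below 0.05 in the authors' deposited table. Each is the stretch of 250 bases just upstream of the RefSeq start (GRCm38.p6, which is mm10), read 5′ to 3′ on the strand of the gene, and capitals mark matches to the 3 motifs searched. Mxd1 lies on chr6:86669160-86669409 (minus strand), Mnt on chr11:74830674-74830923 (plus strand) and Mycn on chr12:12941837-12942086 (minus strand).
Mxd1: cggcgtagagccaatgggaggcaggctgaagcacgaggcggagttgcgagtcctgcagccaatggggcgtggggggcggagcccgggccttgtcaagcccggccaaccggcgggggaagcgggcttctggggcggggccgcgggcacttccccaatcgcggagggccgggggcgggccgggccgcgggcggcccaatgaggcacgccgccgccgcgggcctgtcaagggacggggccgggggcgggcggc
Mnt: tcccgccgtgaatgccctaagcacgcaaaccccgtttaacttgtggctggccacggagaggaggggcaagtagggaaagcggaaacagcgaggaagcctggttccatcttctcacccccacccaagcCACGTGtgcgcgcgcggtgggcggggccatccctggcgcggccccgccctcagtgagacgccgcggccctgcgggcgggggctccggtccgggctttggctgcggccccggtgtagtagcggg
Mycn: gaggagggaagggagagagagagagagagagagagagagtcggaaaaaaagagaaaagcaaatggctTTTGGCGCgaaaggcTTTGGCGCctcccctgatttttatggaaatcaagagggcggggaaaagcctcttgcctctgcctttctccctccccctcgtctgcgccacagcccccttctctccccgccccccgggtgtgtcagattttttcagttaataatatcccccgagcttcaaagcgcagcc

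RefSeq promoters were matched for 8 of the 9 members, Myc being without an entry. The E-box CACGTG, the core site of MYC-MAX and MXD-MAX dimers, was in the upstream stretch of Mnt, 123 bases before the start, and of Mxd4, 219 bases before it. On either strand it was found in 6.86% of 27025 genes with a promoter and in 7 of 20 matched MYC-induced targets (Ldha, Cdk4, Nme1, Eif4e, Ran, Hspd1 and Apex1), or 35%. The E2F letters TTTGGCGC occurred at 2 places in the Mycn stretch, 183 and 168 bases before the start, in 0.485% of all genes with a promoter and in 2 of the 20 targets (10%). The STAT letters TTCNNNGAA were in 8.13% of those genes, in 0 of the 8 members and in 4 of the 20 targets (20%), so the share in the targets lay above that of all genes for each of the 3 motifs. These matches describe letters in a window and were not tested as sites.

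The deposited values are 1 pooled FPKM per gene and group, fragments scaled by gene length and depth, so levels can be compared between genes. The range after an FPKM is the authors' bounds, 2 SD on either side. A gene is called changed where the authors' deposited table tests it with a q-value below 0.05, and the ± after a log2 fold is the standard error that the fold and its test statistic imply. The pooled columns held between 8.96e+06 estimated counts (SPL LSC) and 1.96e+07 (AT LSC). Among 8 progenitor and leukemia markers, Ptprc, the pan-leukocyte CD45 gene, stood between 13.3 and 54.3 FPKM across the LSC groups, Ly6a, which encodes Sca-1, between 97.9 and 231 FPKM, and Hoxa9 between 2.03 and 3.65 FPKM. Kit, the stem cell factor receptor, stood at 1.64 to 4.10 FPKM in the 4 LSC groups, against 10.4 FPKM in NBM.

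By FPKM, Myc was the most abundant member in AT, SPL and BM LSC and in NBM, and Mxd1 was the most abundant one in BL LSC. Myc, on mm10 chr15:61985341-61990361, stood at 11.1 FPKM (5.07 to 17.1) in AT LSC and 5.90 FPKM (3.45 to 8.35) in BL LSC. It was at 32.7 FPKM (15.0 to 50.3) in SPL LSC and 33.5 FPKM (23.6 to 43.5) in BM LSC, against 39.2 FPKM (28.9 to 49.6) in NBM. The bounds of BL LSC lay wholly below those of SPL LSC, BM LSC and NBM, whereas the bounds of AT LSC overlapped with those of SPL LSC. Even at its lowest, in BL LSC, Myc was above 86.8% of gene entries.

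Between leukemic sites, Myc fell in BL LSC relative to BM LSC, by 2.51 ± 0.37 on the log2 scale (q = 9.00e-10), and relative to SPL LSC, by 2.47 ± 0.49 (q = 1.42e-05), in the authors' deposited table. In AT LSC it fell relative to BM LSC by 1.6 ± 0.45 (q = 0.00337) and relative to SPL LSC by 1.56 ± 0.55 (q = 0.0274) in the authors' deposited table. The AT results were less stable: with folds centred on the median of all tested genes, AT over BM LSC became -1.12 (q = 0.0629) and AT over SPL LSC became -1.04 (q = 0.205). That median was itself -0.48 for AT over BM LSC, -0.52 for AT over SPL LSC, -0.37 for BL over BM LSC and -0.40 for BL over SPL LSC. AT and BL LSC differed by 0.91 ± 0.49 for AT over BL LSC (q = 0.193) in the authors' deposited table, with no call.

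Several progenitor markers fell together with Myc in AT and BL over BM LSC. Of 7 tested, 4 fell and 0 rose in AT over BM LSC (15.5% of all tested genes fell) and 4 fell and 2, Ly6a and Ptprc, rose in BL over BM LSC (22.8% fell) in the authors' deposited table. Those that fell in both were Cd34, Meis1, Myb and Gata2, of which Myb, a transcription factor of progenitors, was at 0.775 FPKM in AT LSC and 0.255 FPKM in BL LSC, against 2.51 FPKM in BM LSC. Cd34 stood at 8.07 FPKM in AT LSC and 7.92 FPKM in BL LSC, against 24.3 FPKM in BM LSC, Meis1 at 3.20 FPKM in AT LSC and 5.01 FPKM in BL LSC, against 12.1 FPKM in BM LSC, and Gata2 at 4.08 FPKM in AT LSC and 2.39 FPKM in BL LSC, against 10.9 FPKM in BM LSC. After centring, 1 of the 7 (Meis1) fell in AT over BM LSC, where 5.11% of all tested genes fell. In BL over BM LSC 3 (Cd34, Gata2 and Myb) fell after centring, and the centred share of all tested genes is not given for it. The part of these markers in the Myc results was not tested.

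**Figure D1:**
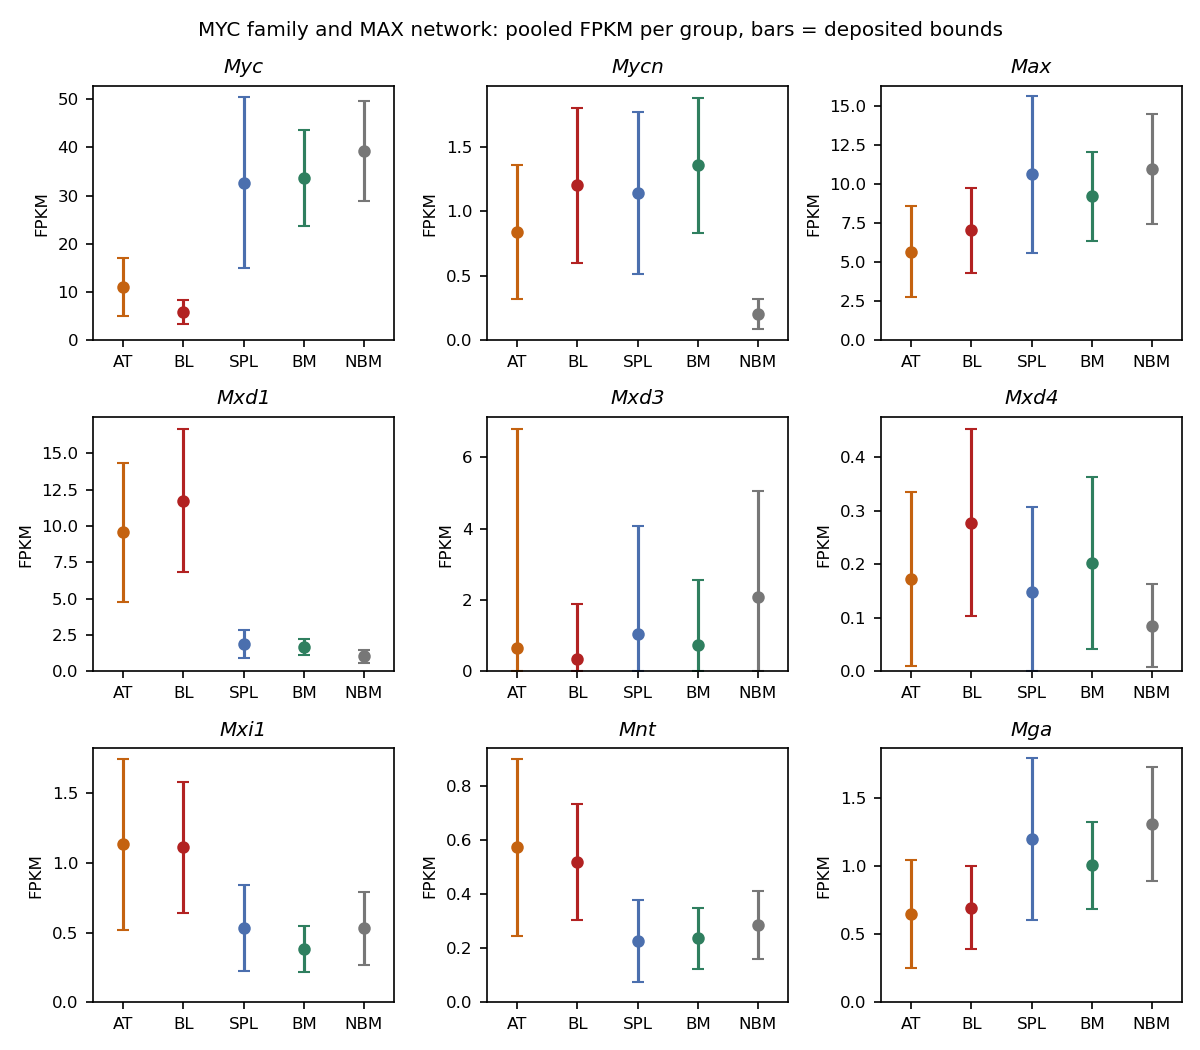
Pooled FPKM of the 9 genes (vertical axes, each starting at 0) in AT, BL, SPL and BM LSC and in NBM (horizontal axes); points are the deposited values and bars the deposited bounds. Myc is lowest in BL LSC (5.90 FPKM), Mxd1 is highest in BL LSC (11.7 FPKM) and Mycn is lowest in NBM (0.203 FPKM).

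Against normal marrow, Myc was lower in AT LSC by a log2 fold of -1.82 ± 0.44 (q = 0.000419) and in BL LSC by -2.73 ± 0.35 (q = 2.31e-12) in the authors' deposited table. In SPL and BM LSC it was not called, with log2 folds over NBM of -0.27 and -0.23 in the authors' deposited table. The order of Myc levels was thus NBM, BM LSC, SPL LSC, AT LSC and BL LSC, and of the neighbours in that order only SPL and AT LSC were called different in the deposited test. The comparisons with NBM share the NBM libraries, and those between sites share the libraries of each site.

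Mycn, a paralog that is usually silent in mature tissue, showed another order. Its level was 0.840 FPKM (0.32 to 1.36) in AT LSC, 1.20 FPKM (0.603 to 1.80) in BL LSC, 1.14 FPKM (0.515 to 1.77) in SPL LSC and 1.36 FPKM (0.831 to 1.88) in BM LSC, against 0.203 FPKM (0.0849 to 0.32) in NBM. The bounds in NBM lay wholly below those of BL, SPL and BM LSC and met those of AT LSC at 0.32 FPKM. In the authors' deposited table Mycn rose over NBM in all 4 LSC groups: by a log2 fold of 2.05 ± 0.61 in AT LSC (q = 0.00668), 2.57 ± 0.55 in BL LSC (q = 6.82e-05), 2.49 ± 0.58 in SPL LSC (q = 0.000249) and 2.74 ± 0.50 in BM LSC (q = 1.90e-06). Between sites it was called in none of the 6 comparisons of the authors' deposited table, where its log2 folds ran between -0.69 (AT over BM LSC) and 0.07 (BL over SPL LSC). Mycn (mm10 chr12:12936093-12941836) rested on few reads in NBM, 34.9 estimated counts over the pooled libraries, and its share of summed Myc and Mycn FPKM was 7.04% in AT LSC, 16.9% in BL LSC, 3.38% in SPL LSC and 3.89% in BM LSC, against 0.514% in NBM.

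Max, the partner that the MYC, MXD, MNT and MGA proteins share (mm10 chr12:76937269-76962248), varied less. It was at 5.68 FPKM (2.76 to 8.59) in AT LSC, 7.06 FPKM (4.33 to 9.79) in BL LSC, 10.6 FPKM (5.62 to 15.7) in SPL LSC and 9.22 FPKM (6.36 to 12.1) in BM LSC, against 11.0 FPKM (7.46 to 14.5) in NBM. The bounds of all 5 groups overlapped, and Max was called in none of the 10 comparisons of the authors' deposited table. The widest of its folds there, AT LSC over NBM, was -0.95 with a 95% interval of -1.81 to -0.10 (q = 0.108), and the lack of a call does not show an equal level. Myc exceeded Max by a factor of 1.95 in AT LSC, 3.07 in SPL LSC and 3.64 in BM LSC, against 3.57 in NBM, while in BL LSC the ratio was 0.836.

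Mxd1 encodes the founding MXD repressor and was the member with the widest range across groups (mm10 chr6:86647045-86669159). It stood at 9.55 FPKM (4.76 to 14.3) in AT LSC and 11.7 FPKM (6.80 to 16.7) in BL LSC. It was at 1.86 FPKM (0.904 to 2.82) in SPL LSC and 1.66 FPKM (1.10 to 2.22) in BM LSC, against 1.04 FPKM (0.606 to 1.47) in NBM. The bounds of AT and BL LSC lay wholly above those of the other groups, and the counts behind them were high, 4234 estimated counts in AT LSC and 4315 in BL LSC.

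In the authors' deposited table Mxd1 rose in AT LSC over BM LSC by a log2 fold of 2.53 ± 0.44 (q = 3.25e-07) and over SPL LSC by 2.36 ± 0.52 (q = 0.000103). The rise in BL LSC was 2.82 ± 0.39 over BM LSC (q = 5.15e-11) and 2.66 ± 0.48 over SPL LSC (q = 1.15e-06) in the authors' deposited table. Over NBM the deposited folds in the authors' table were 3.20 ± 0.47 in AT LSC (q = 9.79e-10) and 3.50 ± 0.43 in BL LSC (q = 5.49e-14), whereas SPL LSC (0.84) and BM LSC (0.67) had no call there. AT over BL LSC was -0.30 with a 95% interval of -1.22 to 0.63 (q = 0.749), and SPL over BM LSC was 0.17 (q = 0.871) in the authors' deposited table. All 6 calls of Mxd1 held under each of the 3 other scalings tried.

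Among the LSC groups, summed levels of mature myeloid markers were higher in AT and BL LSC, where Mxd1 was also higher. Some single markers went the other way. Camp was at 22.8 FPKM in BL LSC, against 40.6 FPKM in BM LSC, and Mrc1 at 0.321 FPKM in AT LSC, against 0.760 FPKM in BM LSC. Summed over 8 macrophage and monocyte markers, the level was 337 FPKM in AT LSC, 617 FPKM in BL LSC, 202 FPKM in SPL LSC and 228 FPKM in BM LSC, against 407 FPKM in NBM, and 3 of the 8 rose in AT over BM LSC and 6 of 8 in BL over BM LSC in the authors' deposited table, where 7.24% and 10.5% of all tested genes rose. Summed over 7 neutrophil markers, the level was 3856 FPKM in AT LSC, 1126 FPKM in BL LSC, 663 FPKM in SPL LSC and 840 FPKM in BM LSC, against 1515 FPKM in NBM. Of these 7 genes, 4 rose in AT over BM LSC and 3 in BL over BM LSC in the authors' deposited table. NBM had higher summed levels of both lists than SPL and BM LSC. Mxd1 was listed at its lowest level in NBM, with no call in SPL or BM LSC over NBM. The 8 stromal markers summed to 29.5 FPKM in AT LSC, 1.10 FPKM in BL LSC, 2.34 FPKM in SPL LSC and 2.86 FPKM in BM LSC, against 2.69 FPKM in NBM, and 6 of the 7 tested rose in AT over BM LSC in the authors' deposited table. Of 5 adipocyte genes, which summed to 6.14 FPKM in AT LSC, 4.74 FPKM in BL LSC, 1.26 FPKM in SPL LSC and 0.872 FPKM in BM LSC, against 0.892 FPKM in NBM, Pparg made up 5.84 FPKM in AT LSC, while Adipoq, Plin1 and Lep were at 0.0304 FPKM or less there. The remaining gene, Cidec, was at 0.263 FPKM in AT LSC, against 0.0130 FPKM in BM LSC and 0.0127 FPKM in NBM. Of the 2 adipocyte genes tested in AT over BM LSC, 2 rose in the authors' deposited table. The 4 erythroid markers found were highest where Myc was high among the leukemic sites, with sums of 9.64 FPKM in AT LSC, 12.7 FPKM in BL LSC, 244 FPKM in SPL LSC and 74.2 FPKM in BM LSC, against 13.7 FPKM in NBM. The 6 T and NK cell markers, which bear on the comparisons with normal marrow, summed to 4.08 FPKM in AT LSC, 7.08 FPKM in BL LSC, 14.4 FPKM in SPL LSC and 12.2 FPKM in BM LSC, against 56.9 FPKM in NBM. The 5 B cell markers summed to 1.46 FPKM in AT LSC, 4.56 FPKM in BL LSC, 14.0 FPKM in SPL LSC and 2.89 FPKM in BM LSC, against 21.1 FPKM in NBM. Of the 4 tested, 4 fell in AT LSC over NBM and in AT over SPL LSC, where 15.5% and 17.9% of all tested genes fell. In BM LSC over NBM, too, 4 fell, where 16.0% of all tested genes were called in either direction. In BL over BM LSC 3 rose, where 10.5% of all tested genes rose. In SPL over BM LSC 3 rose, where 2.69% of all tested genes were called in either direction. These B cell counts are from the authors' deposited table. The part of other cells in the Myc, Mycn and Mxd1 results was not tested, and in bulk RNA fewer cells of a type cannot be told apart from less RNA per cell.

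Mxi1, at a lower level, was likewise highest in AT and BL LSC (mm10 chr19:53310506-53375810). It had 1.14 FPKM (0.522 to 1.75) in AT LSC, 1.11 FPKM (0.644 to 1.58) in BL LSC, 0.533 FPKM (0.225 to 0.841) in SPL LSC and 0.383 FPKM (0.217 to 0.549) in BM LSC, against 0.533 FPKM (0.272 to 0.794) in NBM. In the authors' deposited table Mxi1 rose over BM LSC in AT LSC by a log2 fold of 1.57 ± 0.50 (q = 0.0121) and in BL LSC by 1.54 ± 0.44 (q = 0.00383). Over SPL LSC and over NBM its log2 folds lay between 1.06 and 1.09 in both AT and BL LSC, with no call in the authors' deposited table. After centring these 4 folds passed the threshold, at 1.43 to 1.61. An exon of Mxi1 overlaps that of a predicted gene on the opposite strand in GENCODE M21, and whether counting used the strand is not given in the sources used here.

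Mnt, the broadly expressed MAX partner that is thought to buffer MYC, stood at 0.572 FPKM (0.246 to 0.898) in AT LSC, 0.519 FPKM (0.303 to 0.734) in BL LSC, 0.226 FPKM (0.0753 to 0.377) in SPL LSC and 0.237 FPKM (0.125 to 0.349) in BM LSC, against 0.286 FPKM (0.160 to 0.411) in NBM. None of its folds was called in the authors' deposited table, the nearest being BL over BM LSC at 1.13 ± 0.45 (q = 0.0577) and AT over BM LSC at 1.27 ± 0.53 (q = 0.0725). Centred on the median of all tested genes, the same folds were 1.50 (q = 0.00851) and 1.75 (q = 0.00910) and passed the threshold. The gene lies on mm10 chr11:74830924-74845725.

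Mga, the largest member by locus (mm10 chr2:119897228-119969581), was listed at lower levels in AT and BL LSC, with no call. Its level was 0.650 FPKM (0.251 to 1.05) in AT LSC, 0.696 FPKM (0.391 to 1.00) in BL LSC, 1.20 FPKM (0.609 to 1.79) in SPL LSC and 1.01 FPKM (0.687 to 1.33) in BM LSC, against 1.31 FPKM (0.889 to 1.73) in NBM. The deposited test came nearest to a call for BL LSC over NBM, a log2 fold of -0.91 with a 95% interval of -1.68 to -0.14 (q = 0.0812), in the authors' deposited table.

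The last pair of antagonists was measured too imprecisely to order the groups. Mxd3, a MXD gene linked to dividing cells (mm10 chr13:55322055-55329730), was listed at 0.656 FPKM in AT LSC, 0.347 FPKM in BL LSC, 1.04 FPKM in SPL LSC and 0.736 FPKM in BM LSC, against 2.09 FPKM in NBM, with a lower bound of 0 in every group. The standard error of its log2 folds ran between 2.06 and 7.48, and its exons overlap Prelid1 on the opposite strand. Mxd4 (mm10 chr5:34176580-34187710) was at 0.173 FPKM in AT LSC, 0.278 FPKM in BL LSC, 0.148 FPKM in SPL LSC and 0.203 FPKM in BM LSC, against 0.0852 FPKM in NBM, on 4.15 to 20.5 estimated counts a group. Neither was called in any comparison of the authors' deposited table, and Mxd4 had no test for SPL LSC over NBM.

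Counts of called members were read beside the share of all tested genes called. In AT over BM LSC 3 of 9 members were called, where 22.8% of all tested genes were, and in BL over BM LSC 3 of 9, where 33.3% were, in the authors' deposited table. The counts were 2 of 9 in AT over SPL LSC (25.1% of all tested genes) and 2 of 9 in BL over SPL LSC (33.3%) in the authors' deposited table. They were 0 of 9 in AT over BL LSC (6.52%) and 0 of 9 in SPL over BM LSC (2.69%), and by Cuffdiff's unadjusted p below 0.05 also 0 in both, in the authors' deposited table. Over NBM they were 3 of 9 in AT LSC (23.4%), 3 of 9 in BL LSC (34.4%), 1 of 8 tested in SPL LSC (12.6%) and 1 of 9 in BM LSC (16.0%) in the authors' deposited table. With folds centred on the median of all tested genes, 5 of 9 were called in AT LSC over NBM (18.9% of all tested genes) and 5 of 9 in BL LSC over NBM (30.6%). In the same way 4 of 9 were called in BL over SPL LSC (29.5%). Centring also removed the fall of Myc from the calls of AT over BM and AT over SPL LSC. These then held 3 members that rose and 0 that fell in each, where 5.11% and 7.02% of all tested genes fell. The share of all tested genes that rose after centring is not given here, so the 3 cannot be set beside it. The counts thus depend on the scaling.

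**Figure D2:**
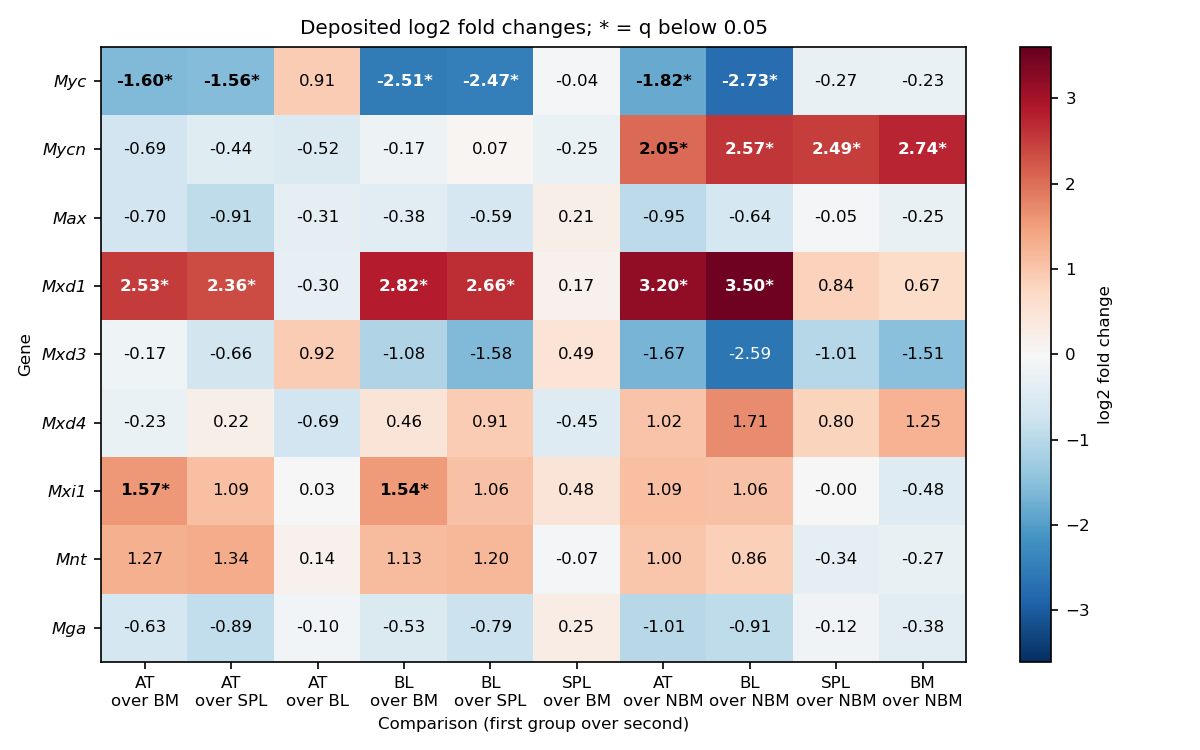
Log2 fold changes from the authors' deposited tables for the 9 genes (rows) in 10 comparisons (columns, first group over second); colour gives the fold, and an asterisk with bold type marks a q-value below 0.05. Myc is negative and Mxd1 positive wherever AT or BL LSC is set over SPL LSC, BM LSC or NBM, and Mycn is positive in the 4 comparisons over NBM.

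Set against each other by FPKM, Myc and Mxd1 were nearly level in AT LSC and far apart in the marrow and spleen. The log2 ratio of Myc to Mxd1 FPKM, with a standard error from the bounds of both genes, was 0.22 ± 0.53 in AT LSC, -0.99 ± 0.43 in BL LSC, 4.13 ± 0.54 in SPL LSC and 4.34 ± 0.32 in BM LSC, against 5.24 ± 0.36 in NBM. Myc was thus 20.2 times Mxd1 in BM LSC and 37.7 times in NBM, and 1.16 times Mxd1 in AT LSC. The standard errors treat the genes as independent within a group, which was not tested.

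The 6 antagonist genes together summed to 12.7 FPKM in AT LSC, 14.7 FPKM in BL LSC, 5.01 FPKM in SPL LSC and 4.22 FPKM in BM LSC, against 5.34 FPKM in NBM. Mxd1 made up 75.0% of that sum in AT LSC, 79.9% in BL LSC, 37.2% in SPL LSC and 39.3% in BM LSC, against 19.5% in NBM. Summed Myc and Mycn came to 11.9 FPKM in AT LSC, 7.10 FPKM in BL LSC, 33.8 FPKM in SPL LSC and 34.9 FPKM in BM LSC, against 39.5 FPKM in NBM. The sums of AT and BL LSC thus hold about as much antagonist as activator RNA or more, while those of the other 3 groups hold mostly Myc. RNA levels do not give the amounts of the proteins, which were not measured.

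**Figure D3:**
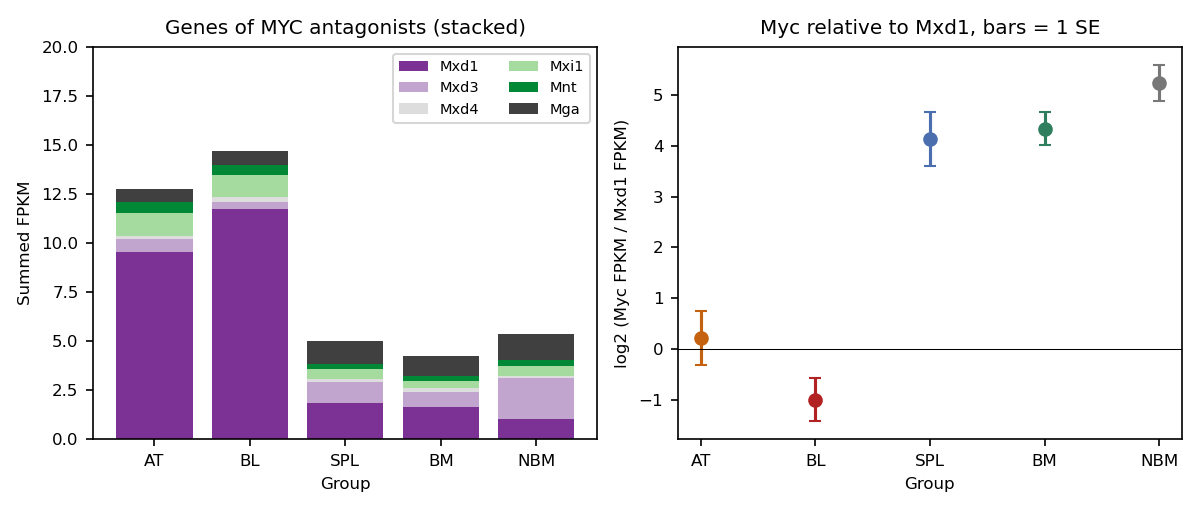
Left, summed FPKM of the 6 genes of MYC antagonists, stacked by gene; right, log2 ratio of Myc to Mxd1 FPKM with 1 standard error, in AT, BL, SPL and BM LSC and in NBM. Mxd1 fills most of the bar in AT (75.0%) and BL LSC (79.9%), and the ratio lies near or below 0 in those groups and at 4.13 or more in the others.

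Genes that MYC is known to induce were lower in BL LSC, and less widely in AT LSC, than in BM LSC. Of 26 such genes, chosen for ribosome production, nucleotide and polyamine synthesis, metabolism and cell division, 25 had a test in BL over BM LSC, and 22 of these fell and 0 rose in the authors' deposited table, and the list had a median log2 fold of -1.98. There, 22.8% of all tested genes fell. The list was chosen with earlier results of these data known, which limits what its counts can show. The lowest q-values belonged to Shmt2, a mitochondrial enzyme of one-carbon metabolism, Polr1b, a subunit of RNA polymerase I, and Nolc1, a nucleolar protein. Shmt2 was at 5.83 FPKM in BL LSC, against 38.1 FPKM in BM LSC, a log2 fold of -2.71 ± 0.37 (q = 2.35e-11) in the authors' deposited table. Polr1b was at 1.30 FPKM in BL LSC, against 7.66 FPKM in BM LSC (log2 fold -2.56 ± 0.38, q = 1.40e-09), and Nolc1 at 3.70 FPKM, against 18.6 FPKM (-2.33 ± 0.36, q = 4.39e-09), in the authors' deposited table.

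In AT over BM LSC the same list moved less: 7 of 25 fell and 0 rose in the authors' deposited table, and the list had a median of -1.10, where 15.5% of all tested genes fell. Polr1b was at 2.12 FPKM in AT LSC, against 7.66 FPKM in BM LSC, a log2 fold of -1.85 ± 0.46 (q = 0.000866), and Apex1, a DNA repair endonuclease, at 14.8 FPKM in AT LSC, against 48.6 FPKM in BM LSC (-1.71 ± 0.46, q = 0.00235), in the authors' deposited table. Cdk4, a kinase of the G1 phase, had 32.6 FPKM in AT LSC, against 84.3 FPKM in BM LSC (-1.37 ± 0.45, q = 0.0159), in the authors' deposited table. After centring, 2 of 25 (Apex1 and Polr1b) fell, where 5.11% of all tested genes fell, and 1, the ornithine decarboxylase gene Odc1, rose.

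Set directly against each other, AT over BL LSC had 6 targets that rose and 0 that fell of 25 tested in the authors' deposited table, and the list had a median log2 fold of 0.86, where 4.01% of all tested genes rose. Those 6 were Cdc25a, Odc1, Rrs1, Shmt2, Srm and Tfrc, and Myc itself was not called between AT and BL LSC (log2 fold 0.91). With the adjustment made within the comparison, 2 of the 6 (Cdc25a and Odc1) passed, and the share of all tested genes under that adjustment is not given here. Relative to SPL LSC, 15 of 24 targets fell in AT LSC (17.9% of all tested genes fell) and 22 of 24 in BL LSC (23.1%) in the authors' deposited table, but 3 of 24 in AT over SPL LSC after centring (7.02%). Over NBM, 8 of 25 fell in AT LSC (15.5%) and 23 of 25 in BL LSC (22.9%), whereas 0 of 24 moved in SPL LSC and 0 of 25 in BM LSC in the authors' deposited table, and the medians there were 0.44 and -0.06. After centring, 3 of 25 fell in AT LSC over NBM (6.56%) and 1, Odc1, rose. By Cuffdiff's unadjusted p below 0.05, too, 0 targets passed in SPL and in BM LSC over NBM in the authors' deposited table.

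**Figure D4:**
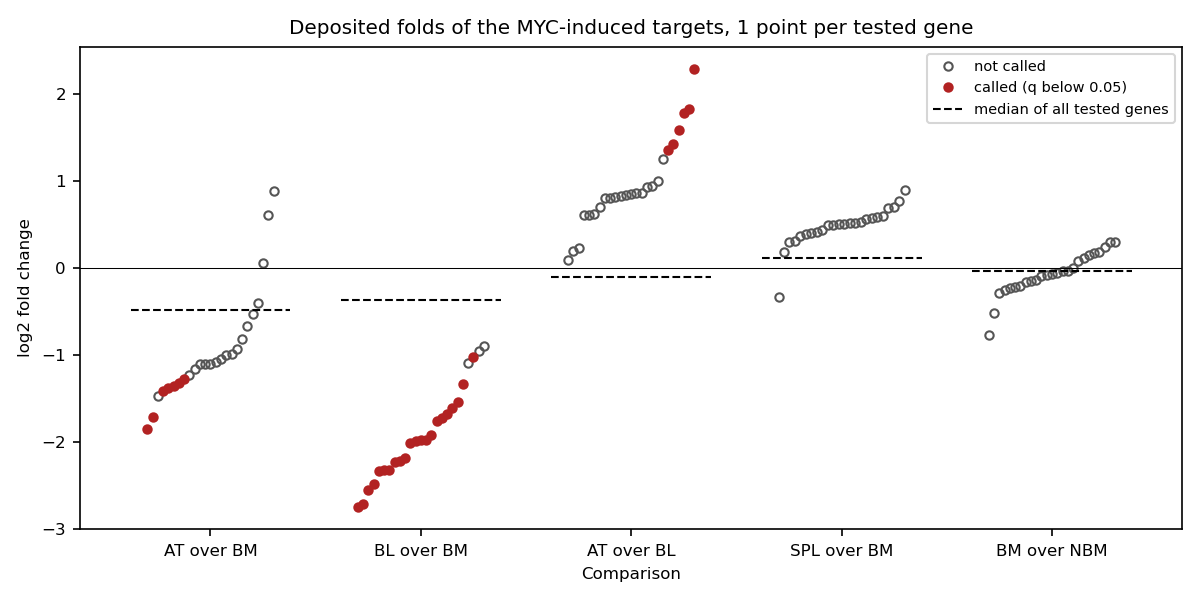
Log2 fold changes from the authors' deposited tables for the MYC-induced targets with a test, 1 point per gene ordered by fold within each of 5 comparisons; filled points have a q-value below 0.05 and dashed lines are the median of all tested genes. In BL over BM LSC 22 of 25 points are filled and all lie below the dashed line at -0.37, and in AT over BL LSC 6 of 25 are filled, all above 0.

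Genes that MYC is known to repress had upward calls in every comparison but SPL over BM LSC, and no downward call, in the authors' deposited table. Over NBM, 4 of 6 rose in AT LSC and 3 of 6 in BL LSC, where 23.4% and 34.4% of all tested genes were called in either direction. The genes of 3 other comparisons are named here. Of 6, 2 rose in AT over BM LSC, where 7.24% of all tested genes rose: Cdkn1a, the CDK inhibitor p21, at 41.8 FPKM in AT LSC, against 16.2 FPKM in BM LSC (log2 fold 1.37 ± 0.45, q = 0.0158), and Gadd45a, a stress-response gene, at 1.81 FPKM, against 0.590 FPKM (1.62 ± 0.61, q = 0.0386), in the authors' deposited table. In BL over BM LSC, 2 of 6 rose, where 10.5% of all tested genes rose. Cdkn1b, the CDK inhibitor p27, was at 4.56 FPKM in BL LSC, against 1.30 FPKM in BM LSC (1.81 ± 0.40, q = 0.000140), and Cdkn1a rose by 1.05 ± 0.35 (q = 0.0177) in the authors' deposited table. BM LSC over NBM had 2 of 6 rising, Ndrg1 at a log2 fold of 1.53 ± 0.33 (q = 7.36e-05) and Cdkn2b, the CDK inhibitor p15, at 3.80 ± 0.98 (q = 0.00120), in the authors' deposited table, where 8.17% of all tested genes rose and Myc was not called. Cdkn2b was low throughout, at 0.706 FPKM in BM LSC, against 0.0506 FPKM in NBM. That NBM level is also the reference of its calls in AT, BL and SPL LSC over NBM.

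Other genes of the pathway gave mixed counts. Of 10 MYC coactivators, 2 fell and 0 rose in AT over BM LSC and 4 fell and 1 rose in BL over BM LSC in the authors' deposited table, where 15.5% and 22.8% of all tested genes fell. The ATPases Ruvbl1 and Ruvbl2 had the lowest q-values, and the 1 that rose was Cdk9, a kinase of transcription elongation. After centring, 0 of the 10 fell and Cdk9 rose in AT over BM LSC (5.11% of all tested genes fell), and the counts in BL over BM LSC were as before. Ruvbl1 was at 6.84 FPKM in BL LSC, against 29.4 FPKM in BM LSC (log2 fold -2.10 ± 0.35, q = 1.45e-07), in the authors' deposited table. Of 9 genes of the SIN3 and NCOR corepressors and MIZ1, 0 were called in AT over BM LSC (5 had an unadjusted p below 0.05 by Cuffdiff) and 3 fell in BL over BM LSC, the histone deacetylase genes Hdac3, Hdac2 and Hdac1, in the authors' deposited table. The 3 of 9 compare with 22.8% of all tested genes, and after centring 1, Hdac3, fell in BL over BM LSC. With upper quartile scaling 0 fell in BL over BM LSC. For centring and upper quartile scaling, the share of all tested genes in BL over BM LSC is not given here.

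Among 11 genes of MYC protein turnover, Skp2, a ubiquitin ligase subunit, and Aurka, a mitotic kinase that stabilises MYCN, fell in both AT and BL over BM LSC in the authors' deposited table, and under each of the 3 other scalings. In all, 2 of 11 fell in AT over BM LSC (15.5% of all tested genes) and 3 of 11 in BL over BM LSC (22.8%), where Fbxw7, a ubiquitin ligase subunit, rose, in the authors' deposited table. Aurka was at 1.38 FPKM in BL LSC, against 12.3 FPKM in BM LSC, a log2 fold of -3.16 ± 0.37 with a q-value listed as 0 in the authors' deposited table. Skp2 was at 0.368 FPKM in BL LSC, against 2.84 FPKM in BM LSC (-2.95 ± 0.42, q = 3.06e-10), in the authors' deposited table. In BM LSC over NBM the 1 turnover gene called was Pim2, a kinase that stabilises MYC, with 6.88 FPKM in BM LSC, against 1.66 FPKM in NBM (2.05 ± 0.41, q = 1.66e-05), in the authors' deposited table.

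Of the 10 partners of Mga in PRC1.6, 9 had a test, and Cbx3, L3mbtl2 and Tfdp1 fell in AT over BM LSC and again, together with Pcgf6, in BL over BM LSC in the authors' deposited table. These 3 and 4 of 9 compare with 15.5% and 22.8% of all tested genes that fell. After centring, 0 fell and 1, Rybp, rose in AT over BM LSC (5.11% of all tested genes fell). In BL over BM LSC 3 fell after centring, and the centred share of all tested genes is not given for it. Cbx3, a chromodomain protein gene, was at 38.3 FPKM in BL LSC, against 124 FPKM in BM LSC (log2 fold -1.69 ± 0.35, q = 3.82e-05), in the authors' deposited table. In the arm of the network built on MLX, the partner of the glucose sensors, Mlxip rose in BL over BM LSC by 1.15 ± 0.42 (q = 0.0313) in the authors' deposited table. Mycl, listed under its older symbol Mycl1, was at 0.0305 FPKM in BM LSC, against 0.164 FPKM in NBM (-2.43 ± 0.80, q = 0.0163), in the authors' deposited table.

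The genes whose levels ran most like Myc and Mxd1 were found by the distance between log2(FPKM + 0.1) values, centred on their mean over the 5 groups, among 3734 genes with a mean FPKM of 5 or more. Nearest to Myc were Ncapd2, a condensin subunit, at a distance of 0.240, Fam60a, a subunit of the SIN3 complex, at 0.299, and Mcm2, a subunit of the replicative helicase, at 0.310. Nearest to Mxd1 were C5ar1, the receptor of complement C5a, at 0.393, Upp1, a uridine phosphorylase, at 0.492, and Gpx3, a glutathione peroxidase, at 0.587. C5ar1 stood at 96.2 FPKM in AT LSC, 96.1 FPKM in BL LSC, 14.3 FPKM in SPL LSC and 17.7 FPKM in BM LSC, against 9.85 FPKM in NBM. With a pseudocount of 1, 0 of the 3 genes nearest to Mxd1 were shared, so that ranking depends on the pseudocount. The likeness covers 5 pooled values and is a description.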

How the data were processed

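Per the labels' protocols, the RNA (RNeasy Plus kit) was amplified by low-input SMARTer chemistry and made into Nextera XT libraries. Per the submitters' processing notes, the tools were Trimmomatic 0.32, Cufflinks 2.0.2 and Cuffdiff, and the build mm10. Not given in the sources used here are the aligner, the annotation and the Cuffdiff version. The authors deposited FPKM, with bounds, as 1 pooled value per gene and group, and estimated counts per gene and group. They also deposited, for each of 10 pairs of groups, a log2 fold, a test statistic (a score), a p-value and a q-value. No column held a single library, so the planned count test per library was not possible and the authors' own test was used as planned for that case. A Benjamini-Hochberg adjustment over all 10 comparisons gave its q-values to within 1.70e-06, and standard errors from bounds taken as 2 SD equalled those implied by the folds within 1% in 99.7% of tested folds.

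Computed here with Python 3.11.15 and pandas 2.3.3 were counts of calls (q below 0.05), implied standard errors, 95% intervals, network sums and ratios, motif matches and the alternatives. The recomputed calls were tested on simulated data. The 9 members and the lists were chosen with earlier results of these data known. The genes named are all members, up to 3 called genes per list with the smallest q-value in AT over BM LSC, BL over BM LSC and BM LSC over NBM, and the 3 genes nearest to Myc and Mxd1; Pcgf6, Cdk9, Fbxw7, Rybp, Cdc25a, Rrs1, Srm, Tfrc and Odc1 were named after their values were seen. Mycl and Adgre1 were matched by older symbols, and Ly6g, Hbb-b1 and Hba-a1 were not matched. Library depth is known only as pooled estimated counts, of 8.96e+06 to 1.96e+07 a group, so intervals rest on the authors' error model. The scalings were applied to the lists other than the MYC-induced targets after their values were seen.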

Additional observations from a re-analysis of the deposited data

Results flagged for a closer look

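Levels differed between leukemic sites for 3 members, by the authors' deposited test of one site over another. Myc differed by a log2 fold of -1.60 for AT over BM LSC, -1.56 for AT over SPL LSC, -2.51 for BL over BM LSC and -2.47 for BL over SPL LSC in the authors' deposited table. Mxd1 differed by 2.53 for AT over BM LSC, 2.36 for AT over SPL LSC, 2.82 for BL over BM LSC and 2.66 for BL over SPL LSC in the authors' deposited table. Mxi1 differed by 1.57 for AT over BM LSC and 1.54 for BL over BM LSC in the authors' deposited table, where it was not called over NBM in any LSC group. The Myc calls of AT over BM LSC and AT over SPL LSC did not hold after centring. Since the comparisons share libraries, these values are not independent of each other.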

How the results depend on the processing

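Of 18 called member folds, 16 kept their call with folds centred on the median of all tested genes, 17 with total count scaling, 16 with upper quartile scaling, 18 with the adjustment made within each comparison and 16 at a q-value below 0.01. With genes of a mean FPKM of 1 or more, 12 kept it, since Mycn and Mxi1 fall below that mean and are not tested. Myc in AT over BM LSC was -1.12 (q = 0.0629) after centring and -1.13 (q = 0.0601) with upper quartile scaling. Myc in AT over SPL LSC was -1.04, -1.03 and -0.99 under the 3 scalings (q = 0.205, 0.203 and 0.239). The number of members called became 5 in AT LSC over NBM and 5 in BL LSC over NBM after centring and with upper quartile scaling, and 4 in BL over SPL LSC under all 3 scalings, through Mxi1 and Mnt. It became 1 in AT over SPL LSC at q below 0.01, and 0 in BM and SPL LSC over NBM with the low filter. Targets called were 4, 4 and 3 in AT LSC over NBM, 3, 3 and 3 in AT over BM LSC and 3, 3 and 3 in AT over SPL LSC with centring, total count and upper quartile scaling. At q below 0.01 they were 4, 2 and 6 in those comparisons and 2 in AT over BL LSC, where the adjustment within the comparison also gave 2. In AT over BM LSC the 3 were 1 that rose and 2 that fell. For the settings other than centring, the share of all tested genes called is not given here, so these counts cannot be set beside it. The cause of these shifts was not tested.

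Uncalled folds near 0 changed sign: Mycn in BL over BM LSC (0.19 centred, 0.21 upper quartile) and AT over SPL LSC (0.075, 0.087 and 0.13 under centring, total count and upper quartile), Max (-0.013) and Mxd1 (-0.053) in SPL over BM LSC with total count scaling. Likewise Mxd3 (0.31, 0.15 and 0.30) and Mxd4 (0.24, 0.080 and 0.24) in AT over BM LSC under the 3 scalings in the same order, and Mga in AT over BL LSC (0.0055 centred, 0.14 total count). Levels by CPM in place of FPKM gave ranges over groups within the standard error for all 9 members. No paired analysis was possible because the deposited columns are pooled per group and carry no replicate number, and for the same reason no library could be left out. Low estimated counts lay behind Mxd4 in all groups (4.15 to 20.5), Mxd3 in BL LSC (31.6) and SPL LSC (36.2), Mycn in NBM (34.9) and Mnt in SPL LSC (32.6).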
